A study of Mus musculus with 15 samples.

Results

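Potassium, sodium and pacemaker channel genes were described in mouse heart RNA by taking every symbol of the deposited count table named as a Kcn, Scn (a or b subunit) or Hcn gene, with 10 or more counts in 3 or more libraries. Of 100 symbols that matched the names, 60 met the count rule, among 17447 genes in the table. The 40 symbols outside the rule had at most 8 counts in their third-highest library, where the lowest member had 10, and 3 of them had no count in any library. Of the 60 members, 58 passed the filter on low counts and were tested among 13021 genes, and Kcnc2 and Kcng4, a pair of low-level voltage-gated potassium channel genes, did not pass.

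The libraries came from heart RNA of male C57BL/6J mice at 18 weeks after surgery, in 5 groups of 3. WTSHAM were wild-type mice with a sham operation, in which the kidneys were left in place and no vector is given in the labels. WTCKD and KOCKD were wild-type and rnls-/- mice with chronic kidney disease from subtotal nephrectomy that received the vector. WTCKD + RNLS and KOCKD + RNLS were the same models given AAV9-cTnT-RNLS, an adeno-associated virus that carries renalase behind the cardiac troponin T promoter, which drives it in cardiomyocytes. The knockout was made by TALEN cutting within the gene, no sham-operated knockout was among the libraries, and Rnls itself was not analysed here, so that the genotype and the transgene were not checked. The labels number 3 samples in each group and do not name the animals, so p-values measure the spread between these samples. Total counts ran from 10480788 to 13424078, with a median of 12011453. Levels are given as CPM, the counts scaled to a common library total with TMM factors, and fold changes on the log2 scale with their standard error (SE).

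In the cardiomyocyte, the voltage-gated sodium channel carries the upstroke of the action potential, and potassium channels repolarize the cell and set its resting potential. Transient outward channels act early, delayed rectifiers later, and inward rectifiers and two-pore channels hold the membrane near rest, while accessory subunits change the gating or the surface level of the pores. HCN channels open on hyperpolarization and carry the pacemaker current of the sinus node.

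Levels between genes were compared per length, on the deposited FPKM. The mean over the 15 libraries was 10 FPKM or more in 12 of the 60 members, 1 or more in 29 and under 0.1 in 6, and the median member stood at 0.633 FPKM, against 5.37 for all genes tested. Kcnk3, which encodes the two-pore background channel TASK-1, had the highest level (89.9 FPKM), followed by Kcnip2, the accessory subunit KChIP2 of the transient outward channel (81.2). Next came Kcnj11, the pore Kir6.2 of the ATP-sensitive potassium channel (65.1). Kcng2 (43.5), an electrically silent voltage-gated subunit, stood above Kcnh2 (24.9), which encodes the rapid delayed rectifier ERG. Kcnj5, Kcnj8, Kcnq1, Hcn2 and Scn4b were also at 10 FPKM or more. The FPKM values equal the counts divided by 1 fixed length per gene, and that length was 98276 bases for Kcnd2 and 33502 for Kcna4, against 11178 for Kcnd3. FPKM of the first pair are therefore low for their counts, and their levels were not ranked. Kcnd2 (0.265 FPKM) and Kcna4 (0.0726) are still included in the median and the numbers by level above, with Kcna4 among the 6 under 0.1.

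**Figure D1:**
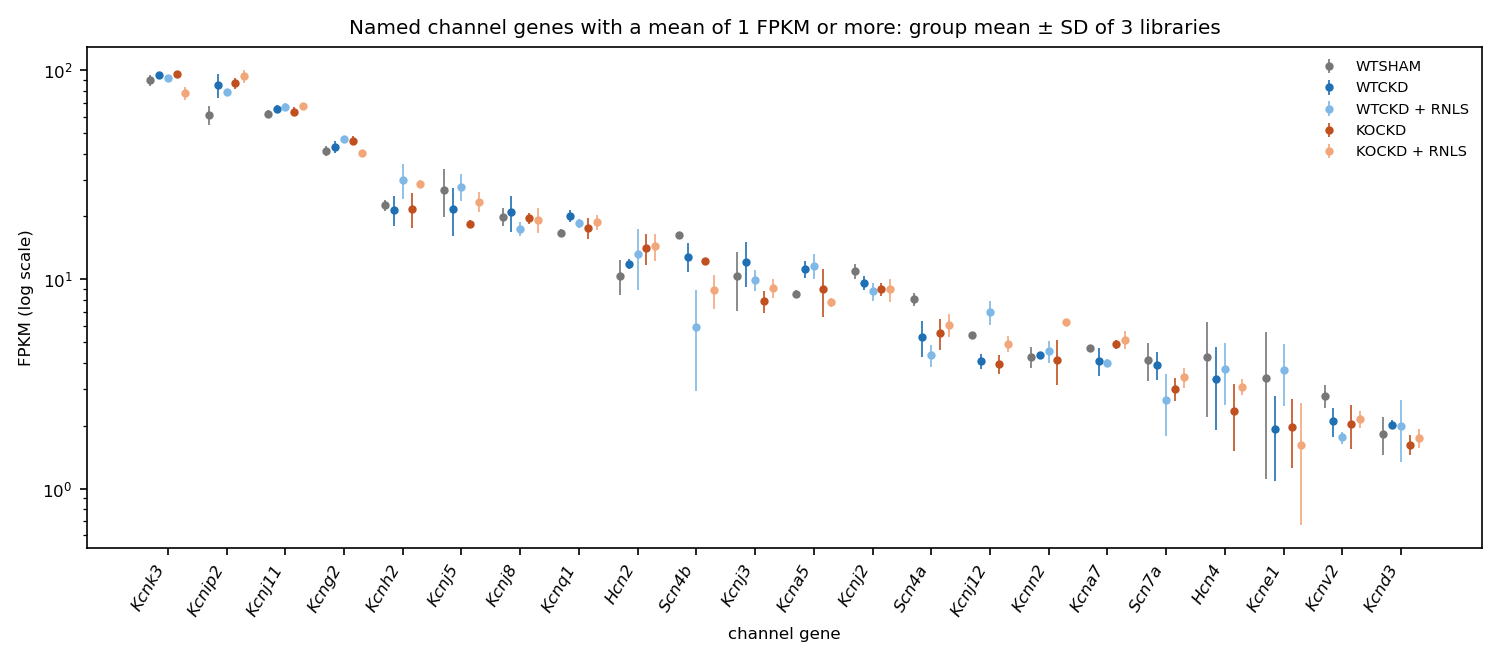
Deposited FPKM (log scale) of 22 channel genes named in the text with a mean of 1 FPKM or more, in descending order, as group means with SD over 3 libraries. Kcnk3, Kcnip2 and Kcnj11 lead the genes shown, and the groups differ by far less than the genes do.

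The call in each comparison was an edgeR quasi-likelihood adjusted p under 0.05 over all 13021 genes. WTCKD and WTSHAM differ in kidney disease and also in the vector, which is given for WTCKD only, and their separate parts were not tested. In WTCKD against WTSHAM, 1 of 58 channel genes rose (Kcnip2) and 1 fell (Scn4a), against 0.599% and 1.7% of all genes tested. In WTCKD + RNLS against WTCKD, 3 rose (among them Kcnj12 and Kcnh2) and 2 fell (Kcna1 and Scn4b), which is 5.17% and 3.45% of the members against 2.19% and 2.28% of all genes. In KOCKD + RNLS against KOCKD, 5 rose (among them Kcnj12, Kcnip1 and Kcnn2) and 2 fell (Kcna1 and Kcnk3), or 8.62% and 3.45% of the members against 9.05% and 7.04% of all genes. Kcnip1 met the count rule only through RNLS libraries, so its rise is tied to the rule and the number that rose there is no evidence of a shift. In knockout mice the member shares lay near or below those of all genes. Against sham the share that fell was about that of all genes and the excess that rose was 1 gene, and with RNLS in wild-type mice the higher shares rest on 3 and 2 genes. With RLE factors 1 rose and 0 fell against sham, and with offsets for gene length, which remove each library's trend of counts on length, 1 rose and 0 fell against sham and 2 rose and 2 fell with RNLS in knockout mice, where calls over all genes went from 16.1% to 5.45%.

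By the study's thresholds, a log2 fold change beyond 0.32 either way with an unadjusted p under 0.05, applied here to the edgeR p-values and not to those of the study's own test, 7 of 58 members passed in WTCKD against WTSHAM, where 11.3% of all genes did. The numbers were 13 with RNLS in wild-type mice (14.4% of all genes) and 12 with RNLS in knockout mice (22.3%). The median log2 fold change of the 58 members was −0.16 in WTCKD against WTSHAM, −0.04 with RNLS in wild-type mice and 0.10 with RNLS in knockout mice. For all genes tested the medians were −0.01, 0.01 and −0.01. The member medians moved with the libraries used, from −0.18 to −0.09 against sham and −0.10 to 0.00 with RNLS in wild-type mice on leaving out 1 library. Offsets for gene length gave −0.10 against sham and 0.02 with RNLS in knockout mice, and without the libraries high in atrial markers the median was 0.00 with RNLS in wild-type mice. WTCKD libraries serve in the comparison with sham and in that with RNLS, so a fall in the one and a rise in the other share those 3 libraries and are given side by side only. The RNLS comparisons of the 2 genotypes share no library.

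**Figure D2:**
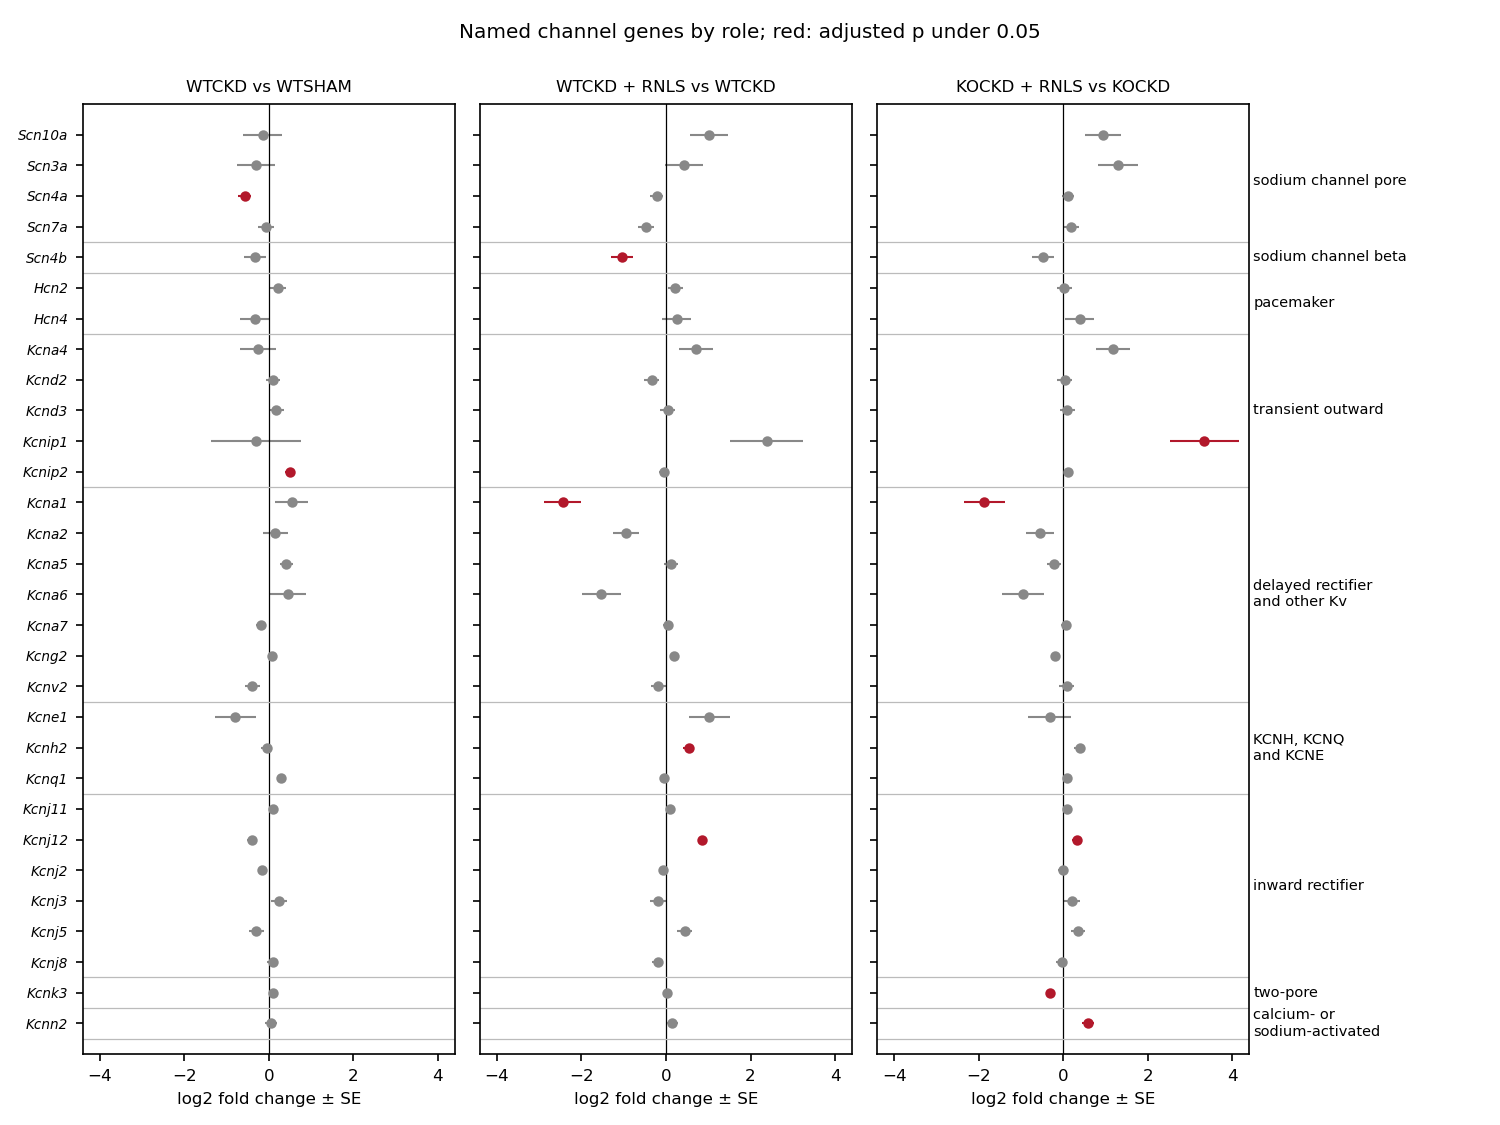
Log2 fold change with SE of 30 channel genes named in the text, ordered by role, in the comparison with sham and in the RNLS comparisons of wild-type and knockout mice. Red points passed an adjusted p under 0.05: 2, 4 and 5 of the genes shown, from left to right.

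Among the sodium channel pores, Scn4a encodes Nav1.4, the channel of skeletal muscle, and stood at 60.03, 58.9 and 65.2 CPM in the WTSHAM libraries, 35.7, 36.3 and 51.8 in WTCKD, 31.0, 35.3 and 39.7 in WTCKD + RNLS, 41.6, 37.7 and 50.2 in KOCKD and 41.4, 46.5 and 52.9 in KOCKD + RNLS. Every WTSHAM library was above every library of the other groups. WTCKD fell against WTSHAM with a log2 fold change of −0.57 ± 0.14 (SE, edgeR adjusted p = 0.04998), a value that lies at the threshold. The call was lost with only the groups compared and in 5 of 6 fits that left out a library, all but the one without WTCKD replicate 3, with adjusted p of up to 0.201 and log2 fold changes of −0.77 to −0.47, and it was lost with offsets for gene length, where the log2 fold change was −0.20. RLE scaling also ended the call, as did the fit without the libraries high in atrial markers, which leaves WTCKD with 1 library. The skeletal muscle markers Myh1, Myh2 and Myh4 had fewer than 15 counts in all libraries together, and the summed level of the 8 skeletal muscle markers, led by Tnni2, was 1.98 to 6.03 CPM.

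The neuronal pores were low. Scn10a, the sodium channel Nav1.8 of sensory neurons, had 2.45, 1.38 and 2.89 CPM in WTCKD, 5.67, 2.04 and 5.90 in WTCKD + RNLS, 4.64, 1.21 and 3.22 in KOCKD and 3.82, 6.86 and 6.84 in KOCKD + RNLS. The groups overlapped in both RNLS comparisons, and the differences of 1.02 ± 0.44 (SE; edgeR adjusted p = 0.206) and 0.94 ± 0.42 (SE; edgeR adjusted p = 0.140) did not pass. Scn3a, the pore Nav1.3, had 0.787, 1.30 and 0.967 CPM in KOCKD and 2.28, 2.89 and 2.34 in KOCKD + RNLS. These groups did not overlap, but the difference of 1.29 ± 0.47 (SE; edgeR adjusted p = 0.0733) did not pass, while DESeq2 called it with an adjusted p of 0.0473 and edgeR called it with only the groups compared. Scn7a, the sodium-sensing channel Nax, did not pass in any comparison.

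Among the beta subunits, Scn4b was measured at 80.8, 72.8 and 74.1 CPM in the WTSHAM libraries, 55.2, 53.4 and 73.6 in WTCKD, 13.4, 44.8 and 30.3 in WTCKD + RNLS, 58.4, 57.5 and 59.1 in KOCKD and 37.6, 37.5 and 50.7 in KOCKD + RNLS. The 3 WTCKD + RNLS libraries were below all WTCKD libraries and differed widely among themselves, with replicate 1 the lowest. Scn4b, whose product takes part in the resurgent sodium current, fell from 60.7 ± 11.2 CPM (SD, n = 3) to 29.5 ± 15.7, a log2 fold change of −1.05 ± 0.27 (SE, edgeR adjusted p = 0.0345). In knockout mice the RNLS group again lay below the vector group in all 3 libraries, and the difference of −0.48 ± 0.26 (SE; edgeR adjusted p = 0.225) did not pass, while edgeR called it with only the groups compared. The call in wild-type mice was lost with only the groups compared and when any 1 library other than WTCKD + RNLS replicate 2 was left out, with adjusted p of up to 0.103 and log2 fold changes of −1.48 to −0.70. The wild-type Scn4b call was also lost without the libraries high in atrial markers, a fit that leaves WTCKD with 1 library. Scn2b and Scn3b, both low, did not pass in any comparison.

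In the main fit edgeR called 0 of the pacemaker channel genes in any comparison, 0 of them had an unadjusted p under 0.05, and DESeq2 also called 0. Hcn2, the main HCN gene of ventricular muscle, was at 28.3, 38.1 and 30.5 CPM in the WTSHAM libraries, 35.6, 38.5 and 38.7 in WTCKD, 58.7, 37.9 and 34.5 in WTCKD + RNLS, 53.1, 43.1 and 38.6 in KOCKD and 39.7, 44.6 and 52.8 in KOCKD + RNLS. The groups overlapped, and the log2 fold change was 0.22 ± 0.18 for WTCKD against WTSHAM, 0.22 ± 0.18 for RNLS in wild-type mice and 0.02 ± 0.18 for RNLS in knockout mice. Hcn4, the main pacemaker channel of the sinus node, was at 14.3, 27.4 and 39.4 CPM in the WTSHAM libraries, 22.0, 30.1 and 12.7 in WTCKD, 21.5, 20.3 and 34.8 in WTCKD + RNLS, 14.1, 10.8 and 21.0 in KOCKD and 19.3, 18.9 and 22.0 in KOCKD + RNLS. WTSHAM replicate 3, WTCKD + RNLS replicate 3 and WTCKD replicate 2 were the highest, and the groups overlapped in every comparison. The main fit gave 0.25 ± 0.34 with RNLS in wild-type and 0.39 ± 0.35 in knockout mice. With the mean atrial marker level as a covariate, edgeR called Hcn4 in both, with 0.73 (edgeR adjusted p = 0.0193) and 1.01 (edgeR adjusted p = 0.00226). Summed atrial markers averaged 1556 and 1253 CPM in WTCKD and KOCKD, and 408 and 316 in their RNLS groups, with overlapping libraries. The covariate thus differs with RNLS, so it can carry part of the RNLS difference, and its part in these calls was not tested.

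The 7 transient outward genes were led by Kcnip2, at 208, 159 and 170.5 CPM in the WTSHAM libraries, 239.6, 221 and 298 in WTCKD, 243, 258 and 236 in WTCKD + RNLS, 268, 271 and 235 in KOCKD and 257, 290.1 and 289 in KOCKD + RNLS. All 3 WTCKD libraries were above all 3 WTSHAM libraries, and so was every library of the other groups. Kcnip2 rose from 179 ± 25.6 CPM (SD, n = 3) in WTSHAM to 253 ± 40.3 in WTCKD, a log2 fold change of 0.50 ± 0.12 (SE, edgeR adjusted p = 0.0336). With RNLS the differences were −0.04 ± 0.12 (SE; edgeR adjusted p = 0.890) in wild-type and 0.11 ± 0.11 (SE; edgeR adjusted p = 0.552) in knockout mice. The call against sham was lost with only the groups compared, without WTSHAM replicate 2 or 3 and without WTCKD replicate 1 or 3, with adjusted p of up to 0.146 and log2 fold changes of 0.36 to 0.62. The call was also lost without the libraries high in atrial markers, a fit that leaves WTCKD with 1 library. Why these fits lost it was not tested. With the replicate number as a block, the edgeR adjusted p was 0.0566.

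The pores Kcnd2 and Kcnd3, which encode Kv4.2 and Kv4.3 of the fast transient outward current, were not called in any comparison. Kcnd2 was at 30.9, 23.3 and 23.3 CPM in the WTSHAM libraries, 21.2, 25.2 and 36.6 in WTCKD, 18.8, 26.1 and 21.0 in WTCKD + RNLS, 30.5, 24.7 and 26.3 in KOCKD and 27.8, 28.8 and 26.8 in KOCKD + RNLS. WTCKD replicate 3 was the highest and the groups overlapped in every comparison, and RNLS in wild-type mice gave −0.34 ± 0.18 (SE; edgeR adjusted p = 0.312). Kcnd3 ranged from 15.8 to 31.1 CPM, and all KOCKD libraries were below all WTCKD libraries, with a difference of −0.31 ± 0.18 (SE; edgeR adjusted p = 0.540). Kcna4, the Kv1.4 pore of the slow transient outward current, had 1.75, 0.839 and 2.18 CPM in KOCKD and 3.41, 4.30 and 3.19 in KOCKD + RNLS. The 3 RNLS libraries were above the 3 vector libraries, and the difference of 1.18 ± 0.41 (SE; edgeR adjusted p = 0.0627) did not pass, while DESeq2 called it with an adjusted p of 0.0374, as edgeR did with only the groups compared, with the atrial covariate and without the libraries high in atrial markers.

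Kcnip1, the KChIP1 subunit better known in neurons, was called on few reads. Its counts were 9, 2 and 0 in WTSHAM, 1, 1 and 6 in WTCKD, 23, 9 and 13 in WTCKD + RNLS, 4, 0 and 4 in KOCKD and 31, 16 and 37 in KOCKD + RNLS. Only libraries of the RNLS groups reached 10 counts, so the gene entered the set through the groups where it is high, and its difference is described without support from the test. Both RNLS groups were above their vector groups in every library. In knockout mice the fitted log2 fold change was 3.34 ± 0.82 (SE; edgeR adjusted p = 0.0139), and at counts this low its size depends on the prior count of the fit. In wild-type mice it was 2.39 ± 0.87 (SE; edgeR adjusted p = 0.133) and did not pass. DESeq2 did not call Kcnip1 in knockout mice, but it gave no adjusted p to 12 of the 58 members there. Whether Kcnip1 was among those 12 is not given, so this is not read as a failed test. With edgeR, leaving out either KOCKD replicate 2 or the third KOCKD + RNLS library ended the call. In the fits that left out 1 library, the edgeR adjusted p reached 0.0599 and the log2 fold changes were 2.82 to 3.75.

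Of the 14 delayed rectifier and other voltage-gated members, 12 were tested, and Kcna1 was the only one called. Kcna1 encodes Kv1.1, a channel best known in axons, and was at 3.08, 3.91 and 10.1 CPM in the WTSHAM libraries, 7.44, 11.3 and 6.30 in WTCKD, 1.001, 1.11 and 2.37 in WTCKD + RNLS, 3.32, 5.22 and 4.11 in KOCKD and 0.9751, 0.910 and 1.59 in KOCKD + RNLS. Every RNLS library was below every vector library of its genotype and below every WTSHAM library. Kcna1 fell from 8.34 ± 2.62 CPM (SD, n = 3) to 1.496 ± 0.762 in wild-type mice, a log2 fold change of −2.45 ± 0.44 (SE, edgeR adjusted p = 0.00633), and from 4.22 ± 0.951 to 1.16 ± 0.377 in knockout mice, a log2 fold change of −1.87 ± 0.48 (SE, edgeR adjusted p = 0.0169). In wild-type mice the call held whichever of the 6 libraries was left out and was lost without the libraries high in atrial markers, as given below. In knockout mice the call was lost without KOCKD replicate 2 and without KOCKD + RNLS replicate 1 or 2, with adjusted p of up to 0.0742 and log2 fold changes of −2.15 to −1.68. Kcna2, which encodes Kv1.2, a partner of Kv1.1 in axons, had 4.56, 4.87 and 4.68 CPM in WTCKD and 2.17, 1.95 and 3.14 in WTCKD + RNLS. Those groups did not overlap, and the difference was −0.95 ± 0.31 (SE; edgeR adjusted p = 0.0919), which passed only with offsets for gene length, against −0.55 ± 0.32 (SE; edgeR adjusted p = 0.260) in knockout mice. Kcna6, another Kv1 pore, singled out after its values were seen, gave −1.53 ± 0.46 (SE; edgeR adjusted p = 0.0725) and −0.96 ± 0.49 (SE; edgeR adjusted p = 0.196), and DESeq2 called it in wild-type mice with an adjusted p of 0.0332, as edgeR did without WTCKD + RNLS replicate 3.

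Some markers of Schwann cells and neurons moved in the same comparisons. The list has 10 genes, 8 of them tested, and 3 fell with RNLS in each genotype, among them Mbp and Gfra3 in wild-type mice, and Sox10, S100b and Gfra3 in knockout mice. Over all genes 2.28% fell in wild-type and 7.04% in knockout mice. Gfra3, a receptor of glia and sensory neurons, fell by 1.65 and 1.40 on the log2 scale. The median log2 fold change of the list was −1.54 in wild-type and −1.29 in knockout mice. Its summed level, led by Cdh19, was 23.0, 20.2 and 32.2 CPM in WTSHAM, 34.0, 39.8 and 24.5 in WTCKD, 25.8, 16.1 and 25.8 in WTCKD + RNLS, 21.9, 25.2 and 30.0 in KOCKD and 26.7, 17.3 and 20.9 in KOCKD + RNLS. The sums of RNLS and vector groups overlapped, and 2 of the 8 had positive log2 fold changes in each genotype. These were Cdh19 (0.15 and 0.69) and the sympathetic marker Dbh (1.14 and 0.12), neither of them called, while Th, another sympathetic marker, had fewer than 15 counts in all libraries together. Fewer cells of a type and less RNA per cell cannot be told apart in bulk heart RNA, and the part of these cells in the Kcna1 result was not tested.

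Kcna5, the Kv1.5 pore of an ultrarapid delayed rectifier in cardiomyocytes, was not called by edgeR in any comparison. It had 26.8, 23.2 and 25.5 CPM in WTSHAM and 31.0, 31.3 and 38.0 in WTCKD. WTCKD was above WTSHAM in every library, with a difference of 0.41 ± 0.16 (SE; edgeR adjusted p = 0.188). Kcnv2, an electrically silent voltage-gated subunit, gave −0.39 ± 0.17 (SE; edgeR adjusted p = 0.256) against sham, and Kcna7, a Kv1 pore of striated muscle, gave 0.28 ± 0.12 (SE; edgeR adjusted p = 0.487) in KOCKD against WTCKD.

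Among the KCNH, KCNQ and KCNE members, Kcnh2 was measured at 101, 101 and 107 CPM in the WTSHAM libraries, 86.1, 114 and 97.2 in WTCKD, 171, 126 and 136 in WTCKD + RNLS, 106, 81.5 and 116 in KOCKD and 139, 130.3 and 127 in KOCKD + RNLS. The RNLS libraries of both genotypes were above all libraries of their vector groups. Kcnh2 rose in wild-type mice from 99.1 ± 14.1 CPM (SD, n = 3) to 144 ± 23.7, a log2 fold change of 0.54 ± 0.13 (SE, edgeR adjusted p = 0.0286). In knockout mice the difference was 0.39 ± 0.13 (SE; edgeR adjusted p = 0.0568) and did not pass, although DESeq2 called it with an adjusted p of 0.0289. EdgeR called it there without the filter on low counts, with only the groups compared, with the atrial covariate, without the libraries high in atrial markers and without KOCKD replicate 3. The wild-type call was lost with only the groups compared, without WTCKD replicate 1 or 3 and without WTCKD + RNLS replicate 1 or 3. In the fits that left out 1 library, the edgeR adjusted p reached 0.133 and the log2 fold changes were 0.40 to 0.66. The wild-type call was also lost without the libraries high in atrial markers, a fit that leaves WTCKD with 1 library.

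Kcnq1, the pore of the slow delayed rectifier, was at 57.6, 58.3 and 57.8 CPM in WTSHAM and 72.7, 72.4 and 67.9 in WTCKD. The 3 WTCKD libraries were above the 3 WTSHAM libraries, and the difference of 0.29 ± 0.08 (SE; edgeR adjusted p = 0.0746) did not pass, while DESeq2 called it with an adjusted p of 0.0312. Kcne1, the accessory subunit of Kcnq1, was at 3.33, 16.8 and 10.96 CPM in the WTSHAM libraries, 7.35, 7.62 and 3.15 in WTCKD, 14.5, 7.89 and 14.2 in WTCKD + RNLS, 4.37, 5.78 and 8.70 in KOCKD and 3.58, 3.23 and 8.53 in KOCKD + RNLS. WTSHAM alone spanned a range as wide as the other groups together, and the WTCKD + RNLS libraries were above the WTCKD libraries. RNLS in wild-type mice gave 1.02 ± 0.49 (SE; edgeR adjusted p = 0.251), which did not pass, and in knockout mice −0.32 ± 0.51 (SE; edgeR adjusted p = 0.706).

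The inward rectifiers numbered 9, and Kcnj12, which encodes Kir2.2, was the only one called. It was measured at 45.9, 46.2 and 45.5 CPM in the WTSHAM libraries, 36.2, 35.5 and 32.2 in WTCKD, 67.9, 55.2 and 64.3 in WTCKD + RNLS, 30.9, 38.8 and 32.3 in KOCKD and 40.0, 46.4 and 40.4 in KOCKD + RNLS. All WTCKD libraries were below all WTSHAM libraries, and all WTCKD + RNLS libraries were above both. Kcnj12 rose with RNLS from 34.7 ± 2.11 CPM (SD, n = 3) to 62.5 ± 6.53 in wild-type mice, a log2 fold change of 0.85 ± 0.10 (SE, edgeR adjusted p = 4.10e-04). In knockout mice it rose from 34.0 ± 4.20 to 42.3 ± 3.60, a log2 fold change of 0.315 ± 0.10 (SE, edgeR adjusted p = 0.0473). That is a fold of 1.244, too small for the study's thresholds. WTCKD against WTSHAM gave −0.40 ± 0.10 (SE; edgeR adjusted p = 0.0502), just above the threshold, while DESeq2 called it with an adjusted p of 0.0176, as edgeR did without the filter on low counts and with the atrial covariate. The wild-type rise was called whichever of the 6 libraries was left out, and its log2 fold changes there were 0.78 to 0.92. The rise in knockout mice was called only without KOCKD replicate 2 among the 6 such fits, with adjusted p of up to 0.181 and log2 fold changes of 0.25 to 0.42, and with offsets for gene length it was 0.06. With the replicate number as a block, its edgeR adjusted p was 0.0623. In the test between the genotypes the difference of these rises did not pass with edgeR.

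Kcnj2, which encodes Kir2.1, the other main pore of the inward rectifier current, was at 56.3, 61.7 and 56.4 CPM in the WTSHAM libraries, 55.8, 46.4 and 53.6 in WTCKD, 54.3, 48.7 and 46.4 in WTCKD + RNLS, 52.2, 48.2 and 46.0 in KOCKD and 41.7, 51.6 and 52.2 in KOCKD + RNLS. WTSHAM was above WTCKD in every library by a small margin, and no comparison passed, with −0.16 ± 0.10 for WTCKD against WTSHAM and −0.06 ± 0.10 and −0.01 ± 0.10 for RNLS in wild-type and knockout mice. Kcnj3 and Kcnj5 encode the acetylcholine-gated channel of atrial and nodal cells. Kcnj3 had 130.2, 163 and 107 CPM in WTCKD and 75.6, 91.2 and 96.4 in KOCKD, with all KOCKD libraries below all WTCKD libraries and a difference of −0.60 ± 0.19 (SE; edgeR adjusted p = 0.444). Kcnj5 gave 0.44 ± 0.17 (SE; edgeR adjusted p = 0.153) with RNLS in wild-type mice and 0.34 ± 0.17 (SE; edgeR adjusted p = 0.173) in knockout mice, where edgeR called it with only the groups compared. The pores of the ATP-sensitive channels were at similar levels in all groups. Kcnj11 was between 195 and 241 CPM in the 15 libraries, and Kcnj8, the Kir6.1 pore of vascular muscle and pericytes, between 41.8 and 64.2. Neither was called in any comparison.

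Kcnk3 was the only called gene among the 6 two-pore members, at 329, 320.0 and 351 CPM in the WTSHAM libraries, 355, 343 and 377 in WTCKD, 369.6, 378 and 345 in WTCKD + RNLS, 375, 371 and 346 in KOCKD and 276, 293 and 316 in KOCKD + RNLS. The KOCKD + RNLS libraries were below every other library. Kcnk3 fell from 364 ± 15.6 CPM (SD, n = 3) in KOCKD to 295 ± 20.0 in KOCKD + RNLS, a log2 fold change of −0.30 ± 0.07 (SE, edgeR adjusted p = 0.0137), a fold of 0.810 that is too small for the study's thresholds. In wild-type mice the difference was 0.02 ± 0.07 (SE; edgeR adjusted p = 0.900) with overlapping groups. The call was lost without KOCKD replicate 2 and without KOCKD + RNLS replicate 1 or 2, with adjusted p of up to 0.0727 and log2 fold changes of −0.36 to −0.26.

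Of the 7 calcium- or sodium-activated members, Kcnn2 was called. It encodes SK2, a small-conductance calcium-activated channel, and was at 16.2, 15.8 and 18.9 CPM in the WTSHAM libraries, 17.4, 17.1 and 18.0 in WTCKD, 18.0, 18.0 and 21.5 in WTCKD + RNLS, 17.1, 12.7 and 20.1 in KOCKD and 24.3, 25.4 and 25.9 in KOCKD + RNLS. The KOCKD + RNLS libraries were above every other library. Kcnn2 rose from 16.7 ± 3.76 CPM (SD, n = 3) to 25.2 ± 0.802, a log2 fold change of 0.59 ± 0.14 (SE, edgeR adjusted p = 0.0115), and it was called whichever of the 6 libraries was left out, where the log2 fold changes were 0.44 to 0.76. In wild-type mice the RNLS libraries were also above the vector libraries, but by 0.14 ± 0.14 (SE; edgeR adjusted p = 0.655).

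**Figure D3:**
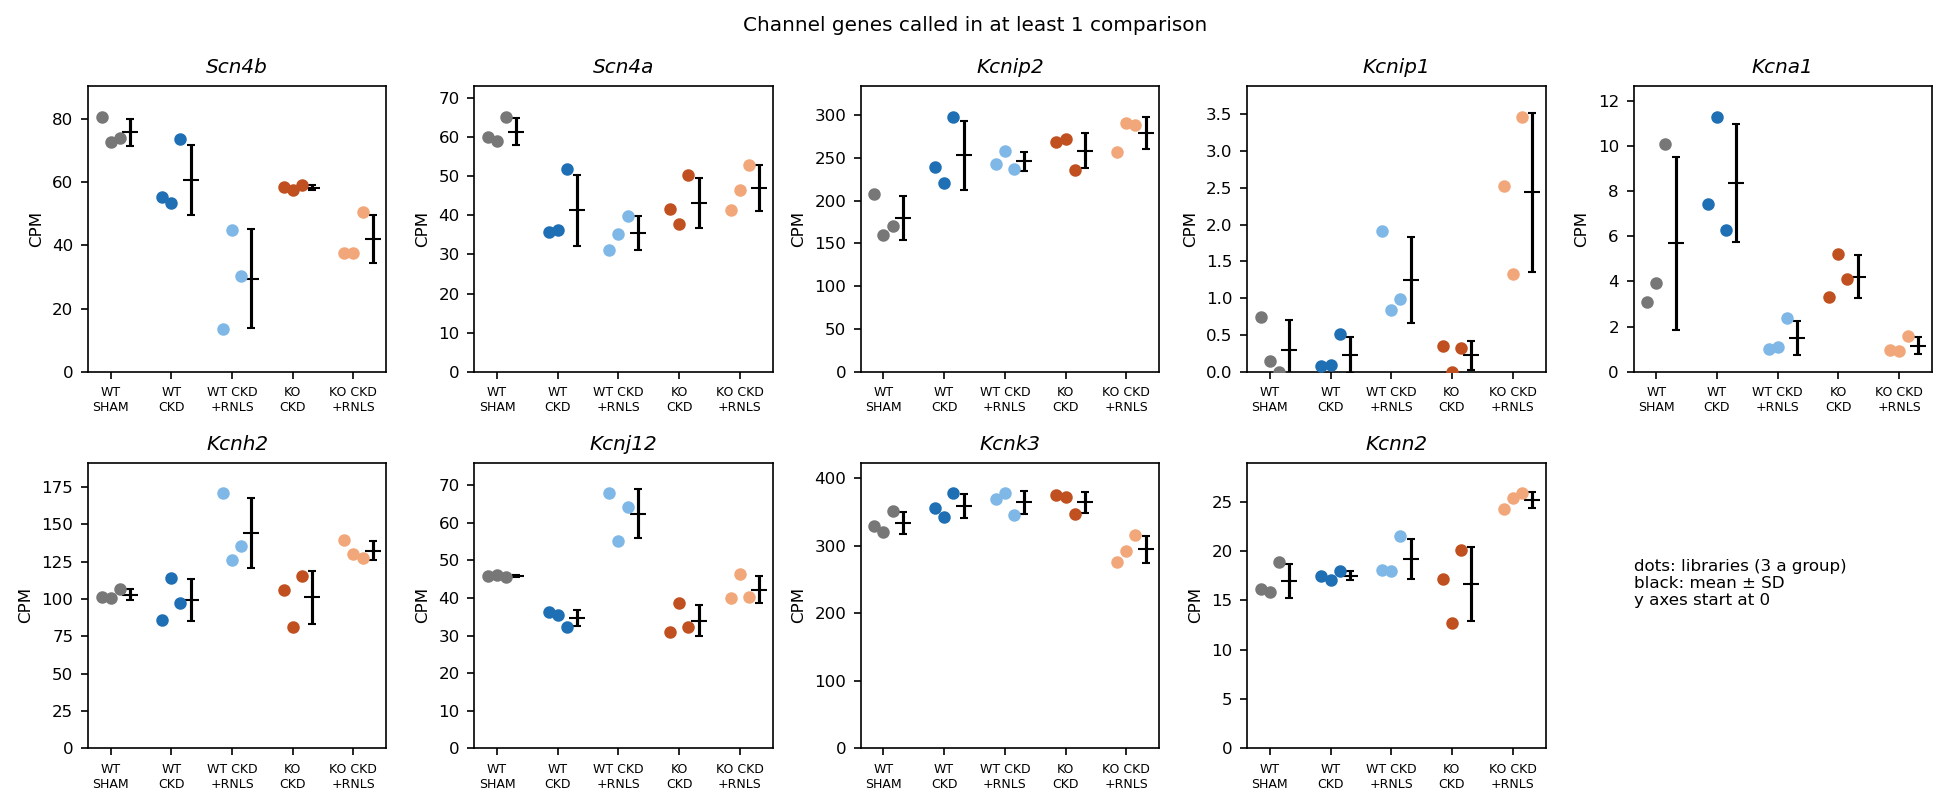
Normalised level (CPM, axes from 0) of 9 channel genes called in at least 1 comparison, with 1 dot per library and the mean and SD of 3 libraries per group. Kcna1 is low in both RNLS groups and Kcnj12 high in WTCKD + RNLS, while Kcnk3 and Kcnn2 are set apart in KOCKD + RNLS.

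No channel gene was called in KOCKD against WTCKD, which asks what the loss of renalase changes in diseased hearts, and 0% of all genes were called. At an unadjusted p under 0.05 there were 9 members, against 10.1% of all genes, and by the study's thresholds 7, against 5.62%. DESeq2 called 0 members and 0.0691% of all genes. Of the 9 members with an unadjusted p under 0.05, those with an average log2 CPM over 1 included Kcna1 (−0.98 ± 0.40), Kcnj3 (−0.60 ± 0.19) and Kcnq1 (−0.19 ± 0.08), which were lower in KOCKD, and Kcna7, given above, which was higher. The median of the members was −0.07, against −0.00 for all genes, and it was −0.13 to −0.06 on leaving out 1 library and −0.03 with offsets for gene length.

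Whether RNLS acted differently in wild-type and knockout mice was tested for every gene, and edgeR called 0 members and 0% of all genes. At an unadjusted p under 0.05 there were 5 members, against 17.6% of all genes, and all 5 also passed the study's fold threshold, where the share of all genes was 15.2%. DESeq2 gave no adjusted p to 36 of the 58 members and called 3 of the rest, Kcnj12, Kcnk3 and Kcng2, and over all genes 5.41% of the 6710 it gave an adjusted p. For Kcnj12 the effect was smaller in knockout mice by 0.54 on the log2 scale, with an edgeR adjusted p of 0.126 and a DESeq2 adjusted p of 0.0305. For Kcna1 the difference was 0.58 ± 0.67 (SE; edgeR adjusted p = 0.695) and for Scn4b 0.57 ± 0.37 (SE; edgeR adjusted p = 0.452). Kcnk3 differed by −0.33 ± 0.11 (SE; edgeR adjusted p = 0.160) and Kcnn2 by 0.46 ± 0.20 (SE; edgeR adjusted p = 0.247), and Kcnh2 by −0.15 ± 0.19 (SE; edgeR adjusted p = 0.717). A call in 1 genotype only, as for Kcnh2, Kcnn2 or Kcnk3, is thus not shown to be a difference between genotypes by the edgeR test.

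The 2 RNLS comparisons shared 2 of the channel genes that rose, Kcnj12 among them, which is 66.7% of the 3 in wild-type and 40% of the 5 in knockout mice, and Kcna1 among those that fell, 50% of the 2 in each. Over all genes, 152 rose in both, 53.3% of the wild-type and 12.9% of the knockout list, and 109 fell in both, 36.7% and 11.9%.

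Atrial markers differed strongly between libraries, and atrial tissue expresses several of these channels at other levels than ventricle. The summed level of the 11 atrial markers, led by Nppa, was 330.3, 702 and 1549.8 CPM in WTSHAM, 1598, 2863 and 208 in WTCKD, 313, 231 and 680.0 in WTCKD + RNLS, 604, 251 and 2905 in KOCKD and 291, 411 and 246 in KOCKD + RNLS. WTSHAM replicate 3, WTCKD replicates 1 and 2 and KOCKD replicate 3 exceeded 1000 CPM, and no library of the RNLS groups did. Of the 10 atrial markers tested, 0 were called by edgeR with RNLS in wild-type mice, where 4 had an unadjusted p under 0.05, and 3 fell in knockout mice (Myl7, Myl4 and Sln), with medians of −1.64 and −1.25. Over all genes 2.28% fell in wild-type and 7.04% in knockout mice. An alternative chosen after seeing the data left out the 4 libraries over 1000 CPM. It leaves WTCKD with 1 library assumed to vary like the rest. Counts for the comparisons that use WTCKD are therefore given only in the closing section, with the shares of all genes. In knockout mice 7 channel genes were called, as many as in the main fit, with Kcnj12 no longer among them. Calls over all genes there were 7.55%, against 16.1% in the main fit. The Kcna1 effect was then −2.04 (edgeR adjusted p = 0.0990) in wild-type and −1.87 (edgeR adjusted p = 0.0236) in knockout mice. With the mean atrial marker level as a covariate, 3, 7 and 12 of the 58 channel genes were called against sham and with RNLS in wild-type and knockout mice. Over all genes 3.65%, 4.42% and 21% were called. Hcn4 and Kcnj5 were among the channel genes called in both RNLS comparisons. Because atrial markers were lower on average in the RNLS groups, the covariate and RNLS are not fully separated in that fit.

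Other cell markers were counted in the same way. Over all genes 2.19% rose and 2.28% fell with RNLS in wild-type mice, and 9.05% and 7.04% in knockout mice. The list counts were not tested against these shares. Of the 8 cardiomyocyte markers, 0 were called in wild-type mice with RNLS and 2 rose in knockout mice (Myh6 by 0.52 and Ryr2 by 0.34), and their sum, led by Myh6, was 100196 to 128053 CPM. The cardiomyocyte sums of WTCKD + RNLS, 117758, 128053 and 122951 CPM, were above those of WTCKD, 107519, 101563 and 115593, and those of KOCKD + RNLS, 115823, 113010.0 and 112537, above those of KOCKD, 101941, 107734 and 103106. In wild-type mice 7 of the 8 had positive log2 fold changes. In knockout mice 6 of the 8 had negative ones, with a median of −0.06, and the higher sum came from Myh6, with means of 31375 CPM in KOCKD and 45111 in KOCKD + RNLS. Of 8 endothelial markers, led by Kdr, 5 fell with RNLS in wild-type and 2 in knockout mice, and their sum was 1197, 1447 and 1322 CPM in WTSHAM, 1404, 1364 and 1547 in WTCKD, 1057, 974 and 1024 in WTCKD + RNLS, 1329, 1424 and 1224 in KOCKD and 1144, 1123 and 1140.0 in KOCKD + RNLS. Of 8 fibroblast markers, led by Gsn, 2 and 1 fell, with sums of 2749.7, 3866 and 3589 CPM in WTSHAM, 2866, 3633 and 2213 in WTCKD, 2343, 1798 and 2582 in WTCKD + RNLS, 2703, 1983 and 2059 in KOCKD and 2421, 2251 and 2138 in KOCKD + RNLS. Among 8 macrophage markers, led by Lyz2, 0 and 2 fell, with sums of 461, 641 and 592 CPM in WTSHAM, 500.4, 502 and 375 in WTCKD, 371, 335 and 347 in WTCKD + RNLS, 407, 416 and 346 in KOCKD and 317, 241 and 254 in KOCKD + RNLS. The endothelial and macrophage sums of the RNLS groups were below those of their vector groups in every library, and the fibroblast sums overlapped. Among 10 smooth muscle and pericyte markers 1 rose in each, Abcc9. Of 8 tested conduction and pacemaker cell markers, 0 were called in wild-type mice and Tbx3 fell in knockout mice, while Isl1 had fewer than 15 counts in all. None of the tested lymphocyte (2), skeletal muscle (3) or adipocyte (6) markers was called with RNLS, and against sham none of the 11 marker lists had a call. How far these shifts bear on the channel results was not tested.

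Proteins that bind or anchor the channels were described from a list of 25 genes, 23 of them tested. With RNLS, 4 rose in wild-type mice (among them Abcc9, Fgf13 and Lrrc10) and 7 in knockout mice (Abcc9, Fgf13, Ank2, Ank3, Akap9, Dmd and Lrrc10), and 0 fell. Over all genes 2.19% rose and 2.28% fell in wild-type mice, and 9.05% and 7.04% in knockout mice. Abcc9, the SUR2 subunit that pairs with the pores Kcnj8 and Kcnj11, rose by 0.46 and 0.62 on the log2 scale. Fgf13, which binds the tail of sodium channel pores, rose by 0.46 and 0.34, and by 0.40 in WTCKD against WTSHAM. Lrrc10, a cardiac leucine-rich repeat protein, rose by 0.86 and 0.50. Among 18 calcium channel, exchanger, pump and gap junction genes, 2 rose with RNLS in wild-type mice (Cacnb2 and Atp1b1) and 5 in knockout mice (Cacna1c, Cacnb2, Cacna2d1, Trpm7 and Clcn2). The same shares of all genes apply to this list. Against sham, 0 rose and 1 fell, where 0.599% and 1.7% of all genes did.

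Of 17 tested transcription factors of cardiac excitability, Irx4 and Nkx2-5 rose with RNLS in wild-type mice, and in knockout mice Irx4 and Mef2c rose and Tbx3 and Nkx2-5 fell. Over all genes 2.19% rose and 2.28% fell in wild-type mice, and 9.05% and 7.04% in knockout mice, also for the clock lists below. With 2 factors in each direction, the knockout calls are not read as a shift of the list. Klf15, a factor known to drive Kcnip2 in the heart with the time of day, rose by 0.55 ± 0.14 in WTCKD against WTSHAM, the comparison in which Kcnip2 rose, and its part in that rise was not tested. Of the 12 evening clock genes, 9 rose with RNLS in wild-type mice, and in knockout mice 8 rose and 1 fell. Of the 5 morning clock genes, 3 and 1 fell, led by Arntl (−4.06 and −3.66). The summed evening clock level was 786, 562 and 403 CPM in WTSHAM, 497, 582 and 552 in WTCKD, 1193, 940.2 and 1092 in WTCKD + RNLS, 636, 517 and 993 in KOCKD and 1023, 1237 and 1259.6 in KOCKD + RNLS. The RNLS libraries were above their vector libraries in every case, and the hour of tissue collection is not given in the sources used here, so that clock phase and RNLS cannot be told apart in these comparisons.

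Promoter windows from RefSeq (GRCm38.p6), 250 bases before to 50 after the start, were found for 40 of the 60 members and 6 of the 11 called genes. Kcna1, Kcnk3 and Kcnn2 were among those without one. Because clock genes moved with RNLS, and Klf15 and Kcnip2 against sham, the windows were searched on both strands for the E-box CACGTG, the D-box forms TTATGTAA and TTATGCAA, and CACCC, the core that KLF factors bind. Shares below are of single windows, while members are counted as genes with a match in any of their windows, so these figures are not compared. CACGTG occurs in 7.15% of 32851 windows and in those of 4 members, Kcnab1, Kcne4, Kcnj2 and Kcnk5, none of them called. The D-box forms occur in 0.938% and 0.743% of windows and in none of those of called genes. CACCC occurs in 57.5% of windows and in those of 34 of the 40 members, and the GC-box GGGCGG, searched beside it, in 35.7% and in those of 22. The windows of 4 called genes are shown, 5′ to 3′ on the gene's strand, with CACCC or its reverse GGGTG in capitals; Kcnh2 and Kcnip2 hold 4 matches each, Kcnj12 holds 1 and Scn4b 0. Of the called genes not shown, Scn4a holds 5, and Kcnip1 holds 2 in 1 of its 3 windows, where 1 GGGCGG match overlaps a CACCC match. In the windows shown, GGGCGG has 3 matches in Kcnh2, 2 in Kcnip2 and 0 in Kcnj12 and Scn4b, and none of these overlaps a CACCC match. These counts describe the letters in the windows only.
Kcnip2 (chr19:45816014-45816313, minus strand): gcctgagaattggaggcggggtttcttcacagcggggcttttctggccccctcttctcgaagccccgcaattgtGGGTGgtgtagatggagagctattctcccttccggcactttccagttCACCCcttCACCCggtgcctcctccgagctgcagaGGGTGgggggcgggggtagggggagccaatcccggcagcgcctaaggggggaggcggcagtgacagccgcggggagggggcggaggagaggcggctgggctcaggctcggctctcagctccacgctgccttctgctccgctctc
Kcnj12 (chr11:61065554-61065853, plus strand): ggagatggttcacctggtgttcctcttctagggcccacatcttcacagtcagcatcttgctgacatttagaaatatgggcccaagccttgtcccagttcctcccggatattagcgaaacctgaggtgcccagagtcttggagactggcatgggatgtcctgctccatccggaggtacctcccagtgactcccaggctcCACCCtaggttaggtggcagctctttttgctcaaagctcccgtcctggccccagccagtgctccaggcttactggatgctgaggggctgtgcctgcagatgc
Kcnh2 (chr5:24329542-24329841, minus strand): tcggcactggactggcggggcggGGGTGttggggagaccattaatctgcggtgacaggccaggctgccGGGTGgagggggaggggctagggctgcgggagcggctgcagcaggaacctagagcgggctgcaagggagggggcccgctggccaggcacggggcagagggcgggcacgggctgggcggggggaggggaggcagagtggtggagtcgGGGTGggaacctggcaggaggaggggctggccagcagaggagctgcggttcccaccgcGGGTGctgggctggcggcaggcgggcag
Scn4b (chr9:45138374-45138673, plus strand): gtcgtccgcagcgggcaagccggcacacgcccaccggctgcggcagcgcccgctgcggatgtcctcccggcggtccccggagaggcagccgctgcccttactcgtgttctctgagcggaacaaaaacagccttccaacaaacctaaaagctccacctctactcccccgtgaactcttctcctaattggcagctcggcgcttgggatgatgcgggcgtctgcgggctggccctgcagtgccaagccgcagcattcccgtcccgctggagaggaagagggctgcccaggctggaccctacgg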

How the data were processed

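RNA of 15 mouse heart samples was analysed, and groups and replicate numbers came from the sample labels. The authors trimmed reads with Trimmomatic, mapped them with HISAT2, counted them with HTSeq and deposited the raw counts. They also deposited FPKM values made with Cufflinks. The submitters' processing notes name GRCm39 and the study's supplement mm9, so no gene positions are given from the files, and the strand setting of the counting is not given in the sources used here. Libraries were run on either of a pair of Illumina instruments, and which one served each library is not given. In GENCODE vM1 no exon of another gene overlaps those of the 11 called genes.

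The members, lists and tests were chosen with earlier results of these data known. Counts were analysed in R 4.3.3 with edgeR 4.0.16, using filterByExpr, TMM scaling and a quasi-likelihood fit with 1 term per group over all libraries, and p-values were adjusted over all tested genes by the Benjamini-Hochberg method. The same steps were tested on simulated data. Alternatives were DESeq2 1.42.0, RLE factors, no filter, a fit of only the groups compared, a block for the replicate number, the study's thresholds on the edgeR p-values, offsets for gene length, an atrial covariate and leaving out each library. A fit without the libraries high in atrial markers was added after seeing the data. Total counts of 10480788 or more per library leave genes of a few counts imprecise. Named genes were those called, a fixed list of core cardiac channels, and the 3 largest rises and falls per comparison at an unadjusted p under 0.05 and an average log2 CPM over 1. Kcna6, Kcng2, Scn7a, Scn2b, Scn3b and the genes with an E-box were named after their values were seen. Some genes that the rule names are not reported here. Library pairs within a group differed by more than sampling noise (chi-square per degree of freedom 4.48 to 20.8).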

Additional observations from a re-analysis of the deposited data

How the results depend on the processing

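The counts of called channel genes were small, and many moved by more than 1.5 times. Shares of all genes tested are given in brackets. For WTCKD against WTSHAM, with 2 calls (2.3%), the count was 7 by the study's thresholds on the edgeR p-values (11.3%), 4 with DESeq2 (4.97% of those it gave an adjusted p, with none for 14 members), 1 with RLE factors (2.3%), 1 with the replicate block (1.94%), 1 with gene-length offsets (2.53%), 0 with only the groups compared (0.777%) and 0 without the libraries high in atrial markers (0.54%), and 0 to 2 on leaving out 1 library. For RNLS in wild-type mice, with 5 calls (4.47%), it was 13 by the study's thresholds (14.4%), 3 of 52 with only the groups compared (3.03%) and 1 without the libraries high in atrial markers (0.353%), and 3 to 6 on leaving out 1 library. For RNLS in knockout mice, with 7 calls (16.1%), it was 12 by the study's thresholds (22.3%), 12 of 50 with only the groups compared (25%), 12 with the atrial covariate (21%) and 4 with gene-length offsets (5.45%), and 3 to 7 on leaving out 1 library. For KOCKD against WTCKD it was 7 by the study's thresholds (5.62%) and 0 otherwise (0% to 0.0691%), including 0 to 0 on leaving out 1 library. For the difference between genotypes it was 5 by the study's thresholds (15.2%) and 3 with DESeq2 (5.41% of those it gave an adjusted p, with none for 36 members). In the other fits it was 0 (0% to 0.553%). The causes were not tested.

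No called gene changed direction under any alternative run. The 14 calls stood in 103 and were lost in 23 of their other alternatives, and stood in 48 and were lost in 36 of the fits that left out 1 library. The 23 include Kcnip1 with DESeq2, where a missing adjusted p was not excluded. The other alternatives include the study's thresholds on the same edgeR p-values, where only the fold could end a call. Kcnip1, tied to the count rule as given above, is among the 14 calls. Counts of called marker and other list genes are given from the main fit. They held in 599 and moved in 121 of their other alternatives, and held in 487 and moved in 89 fits without 1 library. A count of 0 that stayed 0 is among those that held. In KOCKD against WTCKD and the difference between genotypes, edgeR called 0% of all genes in the main fit. List counts had little room to move there, so these numbers are not read as stability. Gene-length offsets lowered the calls over all genes with RNLS in knockout mice from 2095 to 710, and the median of the members there from 0.10 to 0.02. Same-numbered libraries of different groups shared only a number: the correlations of their deviations were −0.36 to 0.33, and 4 of 15 libraries were closest to their own number. With the replicate block the channel genes called were 1, 5, 6, 0 and 0 in the 5 comparisons. The shares of all genes called there were 1.94%, 4.01%, 14.7%, 0.00768% and 0%. Kcnip1 and Scn10a had few counts, which limits their precision.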
